A study of Mus musculus with 10 samples.

Results

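The 10 genes described here encode fibrillar collagens (Col1a1, Col1a2, Col3a1), secreted matrix proteins (Fn1, Sparc, Bgn, Dcn, Postn) and the platelet-derived growth factor (PDGF) receptors of fibroblasts and mural cells (Pdgfra, Pdgfrb). They were chosen by name as a stromal group, and all 10 were found among the 17606 genes with a symbol in the tables. Messenger RNA was measured by RNA sequencing in 10 libraries of cells sorted by flow cytometry from female C3H/HeN mice of wild-type genotype that carried tumors grown from injected SCC7 cells, a mouse squamous carcinoma line, and whose disease the labels give as HNSCC. The population is called EPC in the labels, and it was split by CD45: the tumor gave 4 CD45-positive libraries, and the spleen gave 3 CD45-positive and 3 CD45-negative libraries. CD45, encoded by Ptprc, is the surface protein common to nucleated blood cells. No group of tumor CD45-negative cells and no mice without tumors were among the samples, and neither the age of the mice nor the number of mice or pools behind a library is given in the labels. The labels do not say that replicates came from separate mice, so p-values measure the spread between these libraries alone.

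Levels are given in FPKM, the number of fragments divided by transcript length and by the depth of the library, summed over all transcript models of a gene. Depth was about 17800000 to 20900000 fragments in each library. Ptprc was at 1.63 to 2.57 FPKM in the spleen CD45-negative libraries, 39.2 to 265 in the spleen CD45-positive libraries and 59.4 to 92.5 in the tumor libraries. Globin transcripts took 62.5% to 63.5% of the summed FPKM in spleen CD45-negative libraries, 29.3% to 52.1% in spleen CD45-positive libraries, 10.4% in tumor replicate 1 and 1.80% to 1.87% in tumor replicates 2 to 4. Tumor replicates 2, 3 and 4 differed little beyond counting noise: the chi-square per gene, which is near 1 where 2 libraries differ by sampling alone, was 1.30 to 1.87 between them and 5.76 to 88.0 between any other 2 libraries of a group. The counts of members and list genes called in the tumor comparisons, and the EIIIA share, were therefore also computed with the 3 averaged to 1 library. Tumor replicate 1 and spleen CD45-positive replicate 2 stood apart from the rest of their groups.

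Fibrillar collagens are long rods of 3 chains wound round each other, and each chain repeats a triplet of residues that opens with glycine, the only residue small enough for the core of the helix. Type I collagen is built from the products of Col1a1 and Col1a2, and type III collagen from that of Col3a1. Fibronectin binds cells through integrins and is needed for collagen to be laid down in tissue. Biglycan and decorin are small leucine-rich proteoglycans that bind collagen fibrils, Sparc is a collagen-binding glycoprotein, and periostin links matrix proteins to each other and to integrins. In most tissues fibroblasts are the main source of these transcripts. PDGF receptor alpha marks fibroblasts and receptor beta marks fibroblasts and pericytes.

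The start of the helix-coding stretch is printed for the 3 collagens, since prolyl and lysyl hydroxylases, described further down, act on the repeat. Capitals mark the glycine codon that opens each of the first 10 triplets. The unbroken run of such triplets was 338 long in Col1a1 (of 1453 codons), 339 in Col1a2 (of 1372) and 344 in Col3a1 (of 1464), as read from the GENCODE coding sequence of GRCm38. Positions of genes, here and below, are those of RefSeq on GRCm38. Col1a1 lies at chr11:94936224-94953042, Col1a2 at chr6:4505618-4541543 and Col3a1 at chr1:45311538-45349706.
Col1a1: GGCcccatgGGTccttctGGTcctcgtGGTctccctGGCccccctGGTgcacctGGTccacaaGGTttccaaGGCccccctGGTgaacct
Col1a2: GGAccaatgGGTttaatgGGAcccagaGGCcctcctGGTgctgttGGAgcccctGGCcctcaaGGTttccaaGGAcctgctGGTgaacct
Col3a1: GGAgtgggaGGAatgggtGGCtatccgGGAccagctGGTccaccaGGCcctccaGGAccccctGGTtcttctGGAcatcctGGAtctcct

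Fn1 (chr1:71585473-71653280, minus strand) and Postn (chr3:54359267-54391041, plus strand) are the members whose models were compared by the exons they hold. In fibronectin the exons EIIIB and EIIIA are left out of the plasma form made by the liver and are kept in part of the fibronectin made by cells in tissue. The variable region is spliced by length, and its first part holds a site bound by integrin α4β1, whose leucine, aspartate and valine codons are in capitals. EIIIB lies at chr1:71613763-71614035 (273 bases), EIIIA at chr1:71603660-71603929 (270 bases) and the first part of the variable region at chr1:71597673-71597747 (75 bases), all coding, all given on the minus strand of GRCm38 and all a whole number of codons.
Fn1 EIIIB: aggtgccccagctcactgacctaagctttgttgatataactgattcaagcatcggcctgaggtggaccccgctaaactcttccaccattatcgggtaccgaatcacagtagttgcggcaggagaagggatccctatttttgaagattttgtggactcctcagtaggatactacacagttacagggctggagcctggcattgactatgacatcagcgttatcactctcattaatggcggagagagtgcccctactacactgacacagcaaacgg
Fn1 EIIIA: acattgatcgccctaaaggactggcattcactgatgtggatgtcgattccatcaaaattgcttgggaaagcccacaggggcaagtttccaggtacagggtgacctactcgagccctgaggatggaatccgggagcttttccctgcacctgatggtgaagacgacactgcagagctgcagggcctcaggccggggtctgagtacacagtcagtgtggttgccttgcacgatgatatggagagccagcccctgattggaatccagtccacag
Fn1 variable region, first part: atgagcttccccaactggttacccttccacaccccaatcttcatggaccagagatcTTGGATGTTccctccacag

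The Postn models differ in coding exons near the end of the protein. They are named here A, at chr3:54380412-54380492 (81 bases), and B, at chr3:54385671-54385754 (84 bases), both on the plus strand of GRCm38 and both a whole number of codons.
Postn exon A: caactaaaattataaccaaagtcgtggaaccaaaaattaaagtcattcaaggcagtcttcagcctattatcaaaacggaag
Postn exon B: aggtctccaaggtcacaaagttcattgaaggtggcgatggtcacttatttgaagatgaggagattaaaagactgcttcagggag

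In the tumor CD45-positive libraries all 10 genes stood at 1 FPKM or more in every library, and together they took 507 to 544 FPKM, 0.0524% to 0.0676% of a library. In the spleen CD45-negative libraries they summed to 0.85 to 3.20 FPKM and no member reached 1. In the spleen CD45-positive libraries they summed to 17.3 to 49.4 FPKM, nearly all of it Fn1 and, in replicates 1 and 3, Postn. In bulk samples fewer cells of a type and less RNA per cell cannot be told apart, which holds for every difference that follows.

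**Figure D1:**
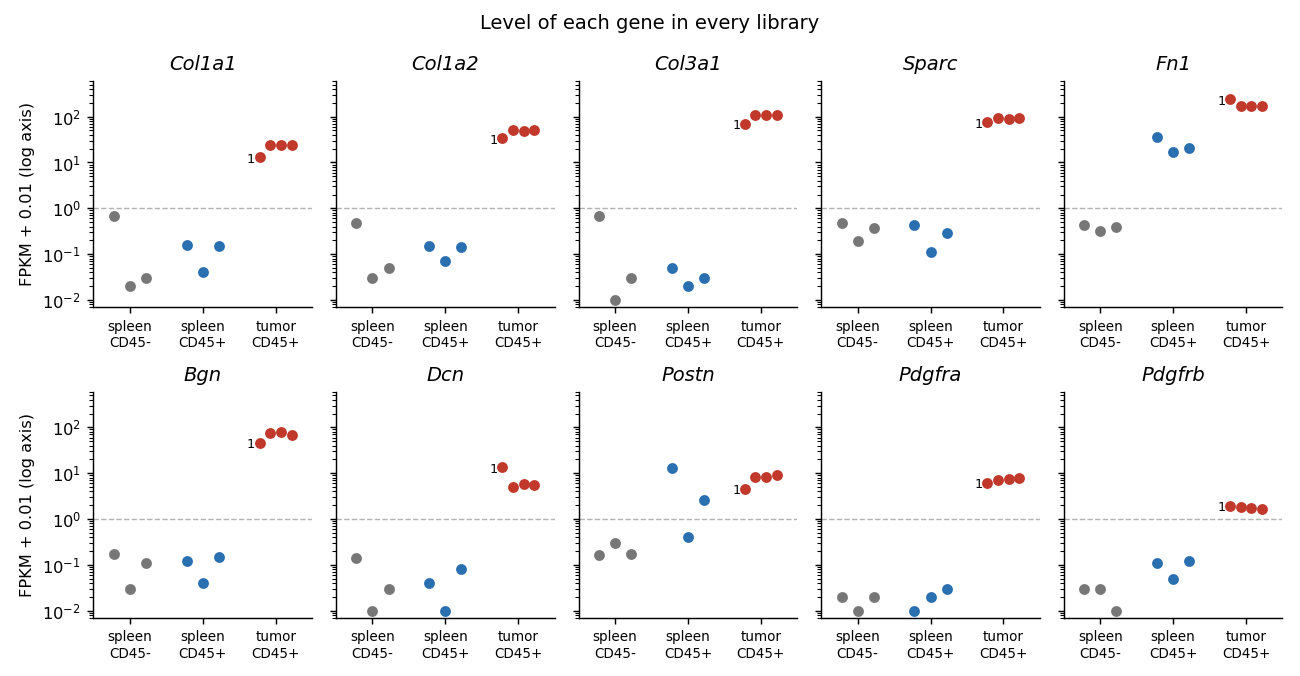
FPKM of each gene in every library on a log axis, with 0.01 added so that values listed at 0 can be drawn, and a dashed line at 1 FPKM. Each point is 1 library and the number 1 marks tumor replicate 1. All tumor points lie above the line, and among spleen points only Fn1 and 2 of the Postn values in CD45-positive libraries do.

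Col3a1 was the most abundant of the 3 fibrillar collagens in the tumor libraries, at 70.4, 110, 108 and 108 FPKM in replicates 1 to 4. Col1a2 stood at 34.1, 50.8, 48.9 and 50.7 FPKM, and Col1a1 at 12.99, 23.7, 23.9 and 23.6 FPKM. Tumor replicate 1 was the lowest of the 4 for each collagen. The ratio of Col1a2 to Col1a1 was 2.62 in replicate 1 and 2.05 to 2.15 in replicates 2 to 4, and that of Col3a1 to Col1a1 was 5.42 and 4.52 to 4.63, so the chains kept the same order in all 4 libraries.

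The spleen libraries held the collagens at trace level. Spleen CD45-negative replicate 1 had Col1a1 at 0.68, Col1a2 at 0.48 and Col3a1 at 0.68 FPKM, about 76.5, 48.7 and 71.8 fragments. Replicates 2 and 3 of that group had 0 to 0.04 FPKM, at most about 4.5 fragments. CD45-positive replicates 1 to 3 had Col1a1 at 0.15, 0.03 and 0.14, Col1a2 at 0.14, 0.06 and 0.13, and Col3a1 at 0.04, 0.01 and 0.02 FPKM. The lowest tumor library was 86.6 times the highest spleen CD45-positive library for Col1a1 and 243 times for Col1a2. Tumor and spleen values did not overlap for any of the 3 chains. This is a description, since differences between tumor and spleen were common among all genes, as given further down.

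Sparc (chr11:55394159-55420080) was at 76.0, 91.7, 90.9 and 95.8 FPKM in tumor replicates 1 to 4, and at 0.10 to 0.42 FPKM in CD45-positive and 0.18 to 0.46 FPKM in CD45-negative spleen libraries. Bgn (chrX:73483601-73495936) was at 46.2, 76.9, 78.2 and 68.1 FPKM in the tumor libraries and at 0.02 to 0.16 FPKM in all 6 spleen libraries. Both separated tumor from spleen without overlap, again as a description.

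Dcn (chr10:97479500-97518163), the other small proteoglycan, was far less abundant than Bgn and went the other way among the tumor libraries. It stood at 13.5 FPKM in tumor replicate 1 and 5.11, 5.86 and 5.65 FPKM in replicates 2 to 4, and at no more than 0.13 FPKM in the spleen. The ratio of Dcn to Bgn was 0.293 in tumor replicate 1 and 0.0664 to 0.0829 in replicates 2 to 4.

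Fn1 was the most abundant member in every tumor library and the one that the spleen CD45-positive cells also held in every library. It was at 241, 169, 169 and 172 FPKM in tumor replicates 1 to 4. In spleen CD45-positive replicates 1 to 3 it was at 35.4, 16.6 and 20.8 FPKM, and in CD45-negative replicates at 0.43, 0.31 and 0.38 FPKM. The 3 groups were in that order with no overlap between any 2 of them. This too is a description, since differences between each pair of groups were common among all genes, as given further down. The share of all genes without overlap was not counted. Mean Fn1 was 7.74 times as high in tumor as in spleen CD45-positive libraries (188 and 24.3 FPKM), and 65.0 times as high in spleen CD45-positive as in CD45-negative libraries (24.3 and 0.373 FPKM).

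Postn had the widest spread among the spleen CD45-positive libraries, at 13.1, 0.40 and 2.57 FPKM in replicates 1 to 3. The tumor libraries had 4.51, 8.12, 8.06 and 8.96 FPKM and the CD45-negative libraries 0.15 to 0.29 FPKM. The highest of all 10 libraries was thus spleen CD45-positive replicate 1, and the tumor and spleen CD45-positive groups overlapped.

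The receptors were low beside the collagens. Pdgfra (chr5:75151322-75198206) was at 6.25, 6.96, 7.62 and 7.74 FPKM in tumor replicates 1 to 4 and at no more than 0.02 FPKM in any spleen library, under about 3 fragments. Pdgfrb (chr18:61045127-61085067) was at 1.96, 1.78, 1.73 and 1.61 FPKM in the tumor, at 0.04 to 0.11 FPKM in spleen CD45-positive and at 0 to 0.02 FPKM in CD45-negative libraries. Pdgfra exceeded Pdgfrb 3.19 to 4.81 times in the tumor libraries.

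By mean FPKM, a level per length, the order in the tumor was Fn1 (188), Col3a1 (99.0), Sparc (88.6), Bgn (67.4), Col1a2 (46.1), Col1a1 (21.0), Dcn (7.53), Postn (7.41), Pdgfra (7.14) and Pdgfrb (1.77). The ranges over the 4 libraries overlapped between Col3a1 and Sparc, between Sparc and Bgn, between Bgn and Col1a2, between Col1a1 and Dcn, and among Dcn, Postn and Pdgfra. Fn1, Pdgfrb and the step from Col1a2 to Col1a1 stood clear of their neighbours. Among all 17606 genes, Fn1 ranked 464 in tumor replicate 1 and 621 to 635 in replicates 2 to 4, and Pdgfrb ranked 9727 to 10303 over the 4 tumor libraries.

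The first comparison asks how CD45-positive and CD45-negative cells of the spleen differ. Differences here and below are in log2(FPKM + 1), which understates the change of low genes, and were fitted with limma over every gene that reached 1 FPKM in 3 or more of the libraries concerned. A gene is called at a Benjamini-Hochberg adjusted p below 0.05. Fn1 alone of the 10 members passed the filter on low values, and it rose (log2 difference 4.13 ± 0.29 SE, adjusted p = 3.41e-04 by limma, higher in 3 of 3 against 3 libraries). It passed through the CD45-positive group alone, which left it no call but a rise. Of the 9729 genes tested 50.5% were called higher and 5.02% lower, and the median over all of them was 0.67, so that a rise was the common outcome among genes. Where any CD45-positive library was left out, Fn1 reached 1 FPKM in 2 libraries and was no longer tested. Without the filter its difference was then 3.84 to 4.36 (limma adjusted p = 2.66e-04 to 0.0164).

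With no filter on low values, the other 9 members differed between the spleen groups by -0.23 (Col3a1) to 1.78 (Postn), and none of them was called. The lowest of their adjusted p-values by limma was that of Pdgfrb (log2 difference 0.10, adjusted p = 0.0514). For Postn it was 0.132, with a standard error of 0.81 from the spread of the CD45-positive libraries. As a description, Postn did not overlap between the spleen groups (0.40 to 13.1 FPKM against 0.15 to 0.29). It rested on about 24.7 to 740 fragments in CD45-positive libraries. For members at a few fragments such values say only that no difference was detectable at this depth.

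The second comparison asks how CD45-positive cells of tumor and spleen differ. All 10 members passed the filter. Of these 9 were called higher and none lower, while Postn did not pass (log2 difference 0.99 ± 0.69 SE, adjusted p = 0.238 by limma). Of all 11464 genes tested 37.7% were called higher and 26% lower. Higher genes made up 59.2% of the calls, and 40.4% with libraries scaled to a common sum without globin genes, under which the same 9 members were called. The member count is not read against that share, because 8 of the 10 members were below 1 FPKM in every spleen CD45-positive library and had to differ once they passed: of the 892 genes in that position, 887 were called higher.

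Fn1 and Postn are the members that the filter did not decide. Fn1 rose by a log2 difference of 2.95 ± 0.27 SE (adjusted p = 5.22e-05 by limma), and by 3.08 ± 0.38 SE with tumor replicates 2 to 4 averaged (adjusted p = 0.00202) and 2.83 ± 0.28 SE without tumor replicate 1 (adjusted p = 3.41e-04). Postn passed as higher without spleen CD45-positive replicate 1 (1.88 ± 0.41 SE, adjusted p = 0.00603 by limma), so that this 1 library decided its call. For the rest the log2 differences, as a description, were 6.59 for Col3a1, 6.15 for Sparc, 5.94 for Bgn, 5.39 for Col1a2, 4.28 for Col1a1, 3.01 for Pdgfra, 2.95 for Dcn and 1.35 for Pdgfrb. The 9 members called higher were the same with tumor replicates 2 to 4 averaged.

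**Figure D2:**
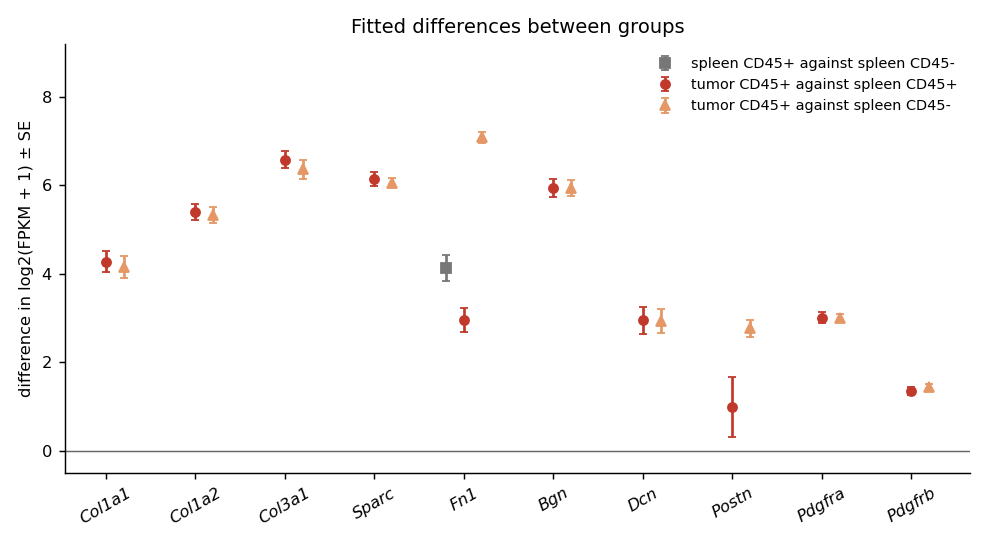
Fitted differences in log2(FPKM + 1) between groups for each gene tested, with bars of 1 standard error from limma. Fn1 and Postn, which spleen CD45-positive cells also held, lie at 2.95 and 0.99 against spleen CD45-positive and at 7.09 and 2.78 against spleen CD45-negative libraries.

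The third comparison sets tumor CD45-positive against spleen CD45-negative libraries. Tissue and gate differ together in it and cannot be told apart, and it shares its libraries with the other comparisons. All 10 members were called higher, against 67.5% of 11209 genes called higher and 22.5% called lower. Every member passed through the tumor group alone, as did 3125 genes in all, of which 3120 were called higher. Their log2 differences are therefore given as a description: 7.09 ± 0.13 SE for Fn1, 2.78 ± 0.19 SE for Postn and 1.45 ± 0.07 SE for Pdgfrb, or 7.21, 2.58 and 1.48 with tumor replicates 2 to 4 averaged.

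The splice forms of Fn1 were compared through its models. Of 14 models 7 could be matched to known exons, and the shares below are of the FPKM of those 7. This measure was chosen after its values were seen, and 4 segments were tested. Models with EIIIA took 12.0%, 9.28% and 10.6% in spleen CD45-positive replicates 1 to 3, 15.9% in tumor replicate 1 and 43.2%, 41.0% and 41.2% in tumor replicates 2 to 4. The tumor libraries lay above all spleen libraries, by 24.7 percentage points on average (35.3% ± 13.01 SD, n = 4, against 10.6% ± 1.34 SD, n = 3). The exact two-sided permutation p was 0.0571, the smallest that 4 against 3 libraries allow, and 0.114 when adjusted by Benjamini-Hochberg over the 4 segments. With tumor replicates 2 to 4 averaged the difference was 18.2 points.

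EIIIB was rarer. Models with it took 0% to 0.0486% in the spleen and 0.680%, 4.59%, 2.07% and 2.36% in tumor replicates 1 to 4 (exact two-sided permutation p = 0.0571, adjusted p = 0.114). Models with the first part of the variable region took 35.05%, 49.5% and 41.6% in the spleen, 48.3% in tumor replicate 1 and 74.8%, 75.1% and 73.0% in tumor replicates 2 to 4. There the groups overlapped, since tumor replicate 1 lay below spleen replicate 2 (exact two-sided permutation p = 0.114, adjusted p = 0.152). The second part was kept in most models of both groups, at 83.5% to 87.7% in the spleen and 83.6% to 93.8% in the tumor (exact two-sided permutation p = 0.171, adjusted p = 0.171).

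The 7 Fn1 models whose exons were not known held 0% to 1.25% of Fn1 in the spleen and 7.21% to 18.9% in the tumor libraries. Counting all of them as without EIIIA gave a mean of 29.3% in the tumor against 10.6% in the spleen, and counting all as with it 44.8% against 11.2%, with no overlap either way. For the second part of the variable region the first of these counts turned the difference from 5.16 to -8.39 percentage points. The values of near-identical models are estimates that share most of their reads, so these shares are less certain than the summed level of the gene.

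**Figure D3:**
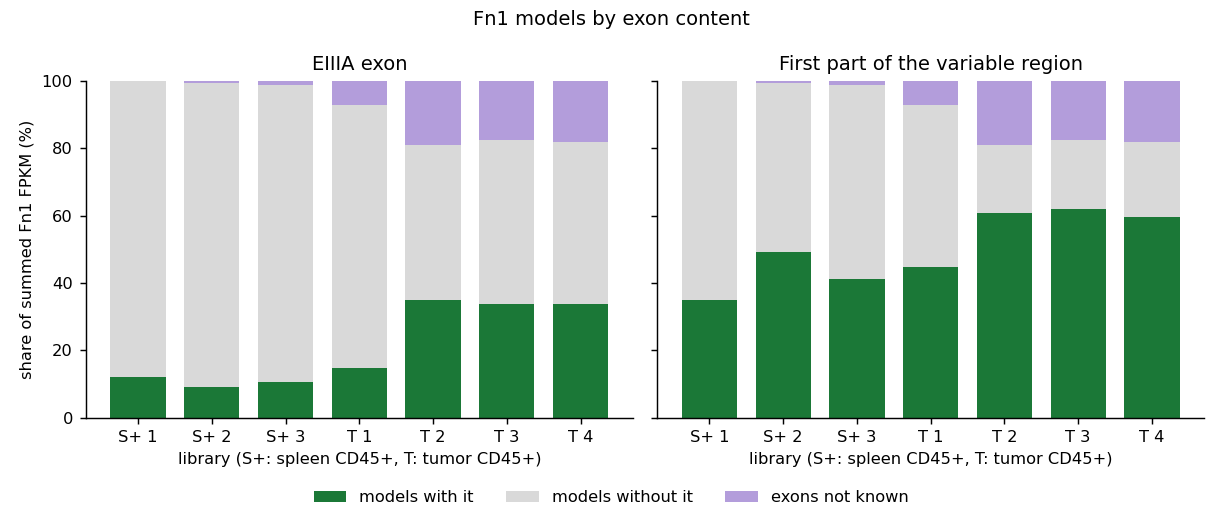
Share of summed Fn1 FPKM (percent) in models with the EIIIA exon (left) or the first part of the variable region (right), in models without it and in models whose exons were not known, 1 bar per library for the 3 spleen CD45-positive (S+) and 4 tumor (T) libraries. Unlike the shares above, those drawn include the models of unknown exons in the total. Tumor replicates 2 to 4 have the largest parts with either segment, and tumor replicate 1 lies near the spleen libraries.

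Postn models were read in the same way where the gene reached 1 FPKM. Models with exon A took 3.45% in spleen CD45-positive replicate 1 and 0% in replicate 3, and 24.2%, 22.8%, 25.7% and 25.6% in tumor replicates 1 to 4. Models with exon B took 0.689% and 0% in these spleen libraries and 6.66% to 16.2% in the tumor. The 2 spleen libraries thus held nearly all their Postn in models that lack both exons, and the tumor libraries did not. No test was run on 2 libraries.

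Most chains on a chosen list of other collagens were called higher in the tumor too. Of 17 chains 13 were tested between tumor and spleen CD45-positive libraries. Of these 12 were called higher, against 37.7% of all genes, and none lower. The median log2 difference was 3.48 against 0.20 over all genes, and 10 of the 13 were below 1 FPKM in every spleen CD45-positive library. All 13 were called without spleen CD45-positive replicate 2, and 11 with tumor replicates 2 to 4 averaged. Col18a1, a basement membrane collagen that carries endostatin, was at 58.8 to 76.3 FPKM in the tumor and at 0.10 to 1.07 in spleen CD45-positive libraries. Col6a1, a chain of the beaded filaments of type VI collagen, was at 22.1 to 34.7 FPKM in the tumor and at no more than 0.01 FPKM in the same spleen libraries. Col14a1, which sits on the surface of fibrils, had the order of Postn among spleen CD45-positive replicates 1 to 3, with 12.95, 0.58 and 3.96 FPKM. Unlike Postn it was called higher in the tumor, where it was at 22.6 to 25.5 FPKM. Col5a1, the only chain tested that was not called, was at 2.55 to 12.2 FPKM in all 3 groups.

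Enzymes and chaperones of collagen synthesis were called higher in the tumor for 16 of 17 tested genes of a list of 21, with a median of 2.42, against 37.7% of all genes. Of the 17, 6 were below 1 FPKM in every spleen CD45-positive library, Serpinh1 and Pcolce among them, so that a rise was their likely call. Serpinh1, the collagen chaperone HSP47, was at 78.5 to 134 FPKM in the tumor and at no more than 0.10 FPKM in spleen CD45-positive libraries (log2 difference 6.79). Pcolce, which speeds the removal of the procollagen C-propeptide, was at 62.8 to 69.4 FPKM against no more than 0.20. The prolyl 4-hydroxylase subunits P4ha1 and P4hb, which modify the helix, were at 37.8 to 60.2 and 430 to 449 FPKM against 3.65 to 10.1 and 71.7 to 94.8. The 4 genes not tested were Adamts2, which removes the N-propeptide, and the cross-linking oxidases Lox, Loxl1 and Loxl2; none exceeded 0.26 FPKM in any library, and they were named because they made up the untested remainder. Between the spleen groups 7 of 8 tested genes of this list were called higher, against 50.5% of all genes, and 2 of the 7 (Plod1 and Crtap) passed through the CD45-positive group alone. Plod3, a lysyl hydroxylase, rose by 2.22 ± 0.37 SE (adjusted p = 0.00259 by limma).

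Of 9 other proteoglycans 7 were tested and all 7 were called higher in the tumor (median 2.13), against 37.7% of all genes. Of these 7, 5 were below 1 FPKM in every spleen CD45-positive library. Ogn, a leucine-rich proteoglycan, was at 16.7 to 38.3 FPKM in the tumor and at no more than 0.06 in spleen CD45-positive libraries, and Srgn, the proteoglycan of blood cell granules, at 1094 to 1489 FPKM against 91.2 to 343. Of 28 other matrix glycoproteins 17 were tested and all 17 were called higher (median 2.94), against the same 37.7%. Of these 17, 8 were below 1 FPKM in every spleen CD45-positive library. Spp1, osteopontin, was at 1549 to 1730 FPKM in the tumor and at 0.42 to 2.71 in spleen CD45-positive libraries. Tgfbi, a secreted protein induced by TGF-beta, was at 357 to 448 FPKM in the tumor and, like Fn1, well above 1 in spleen CD45-positive libraries (114, 13.4 and 37.7 FPKM in replicates 1 to 3).

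Ligands for the PDGF receptors were present in the same tumor libraries. Pdgfb was at 30.6 to 31.5, Pdgfa at 8.37 to 9.24 and Pdgfc at 6.75 to 11.6 FPKM. All 3 were called higher than in spleen CD45-positive libraries (log2 3.65, 3.12 and 2.23), against 37.7% of all genes. Pdgfa was below 1 FPKM in every spleen CD45-positive library, so that a rise was its likely call. In spleen CD45-positive replicate 1 Pdgfb and Pdgfc were at 5.89 and 4.62 FPKM, against 0.16 to 1.06 FPKM in replicates 2 and 3. Pdgfd, the remaining ligand of the list, was not tested in the tumor comparisons and stood at no more than 0.04 FPKM in the tumor and at 0.98 FPKM or more in spleen CD45-negative libraries. It was not called between the spleen groups (log2 difference -0.74, adjusted p = 0.0618 by limma).

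Receptors for collagen and fibronectin were called in both directions. Of 17 genes 12 were tested between tumor and spleen CD45-positive libraries. Of these 10 were called higher and 2 lower (median 2.63), and 9 and 2 with tumor replicates 2 to 4 averaged. Over all genes 37.7% were called higher and 26% lower. Ddr2 and Mrc2 were below 1 FPKM in every spleen CD45-positive library, so that a rise was their likely call. Itgb3, one of the 2 lower genes, was below 1 FPKM in every tumor library, so that a fall was its likely call. Itga5, the α subunit of the classical fibronectin receptor, was at 39.2 to 45.1 FPKM in the tumor and 1.15 to 3.38 in spleen CD45-positive libraries. Itga4, whose product binds the variable region shown above, was one of the 2 lower genes, at 3.85 to 5.86 FPKM in the tumor and 31.9 to 51.8 in spleen CD45-positive libraries. Mrc1, a macrophage receptor that takes up collagen, was at 239 to 302 FPKM against 72.2, 2.21 and 15.4 in spleen CD45-positive replicates 1 to 3. Sdc4, a heparan sulfate proteoglycan that acts with integrins at fibronectin, was at 87.9 to 147 against 1.58 to 18.5 FPKM.

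Of 10 genes of TGF-beta signalling, the pathway best known for inducing collagen and fibronectin genes, 9 were tested. Of these 7 were called higher, against 37.7% of all genes, and none lower (median 1.16). That count was unstable: 2 were called with tumor replicates 2 to 4 averaged, 3 with scaling without globin genes, 3 without spleen CD45-positive replicate 3, 4 without any 1 of the tumor replicates and 5 with the replicate block. Ltbp1, which binds latent TGF-beta to the matrix, was at 10.9 to 16.6 FPKM in the tumor and at 0.09 to 0.25 in spleen CD45-positive libraries. Tgfb3 was at 5.83 FPKM in tumor replicate 1 and 18.3 to 19.8 in replicates 2 to 4, against 0.07 to 0.38 in spleen CD45-positive libraries. Ltbp1 and Tgfb3 passed the filter through the tumor group alone, so that a rise was their likely call. Tgfb1 was at 97.8 to 122 FPKM in the tumor and 92.3, 27.7 and 42.8 FPKM in spleen CD45-positive replicates 1 to 3.

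Markers of other cell types differed between the groups in both directions, and their part in the results was not tested. The granulocyte list summed to 69.5 to 1771 FPKM in the tumor and 23233 to 77769 in spleen CD45-positive libraries. The erythroid list summed to 5975 to 40797.5 and 129187 to 275487 FPKM in these groups. B cell and T and NK cell lists summed to 4.33 to 7.10 and 7.23 to 41.9 FPKM in the tumor, against 137 to 1227 and 60.4 to 365. The 12 fibroblast markers summed to 226 to 268 FPKM in the tumor, 15.6 to 47.7 in spleen CD45-positive and 1.16 to 1.48 in spleen CD45-negative libraries, and 7 of the 12 reached 1 FPKM in every tumor library. The spleen CD45-positive sum was nearly all Thy1 (4.40 to 31.0 FPKM) and Pi16 (10.7 to 23.5 FPKM). These 2 were at 1.46 to 7.54 and 2.25 to 5.88 FPKM in the tumor. Pdpn and Cxcl12 made up most of the tumor sum, at 142 to 174 and 51.0 to 51.6 FPKM, and the transcription factors Prrx1 and Twist1 were at 7.05 to 10.8 and 9.80 to 14.9 FPKM. Against this, the fibroblast markers Dpt, Fap and Loxl1 stayed below 1 FPKM in every library and Tcf21 was listed at 0 in tumor replicates 2 to 4. Lum was at 3.33 FPKM in tumor replicate 1 and 0.92 to 1.15 in the others.

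The 8 mural markers summed to 7.88 to 14.5 FPKM in the tumor and to no more than 1.79 FPKM in the spleen, mainly through Cspg4 (9.65 FPKM in tumor replicate 1, 4.24 to 4.34 in the others), and Myh11 and Des were at no more than 0.10 FPKM there. The 12 endothelial markers summed to 9.70 to 12.7 FPKM in the tumor and 13.03 to 52.6 in spleen CD45-positive libraries. The 10 epithelial and carcinoma markers summed to 406 FPKM in tumor replicate 1, 313 to 319 in tumor replicates 2 to 4 and no more than 4.98 in the spleen, through Krt8 and Krt18 (208 to 239 and 95.4 to 164 FPKM), while Krt5, Krt14, Krt6a, Epcam and Trp63 were at no more than 0.13 FPKM in the tumor.

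The 14 monocyte and macrophage markers, all at 1 FPKM or more in every tumor library, summed to 27985 to 49957 FPKM there. In spleen CD45-positive replicates 1 to 3 they summed to 5237, 1454 and 4214 FPKM and in CD45-negative libraries to 77.4 to 136. Fn1 and Postn were lowest in spleen CD45-positive replicate 2, as this sum was. That was not particular to this list. Ptprc and the fibroblast, mural, endothelial, epithelial, B cell, T and NK cell and erythroid sums were also lowest there. The granulocyte sum was lowest in replicate 1 and the megakaryocyte sum in replicate 3. The 10 megakaryocyte markers summed to 601 to 874 FPKM in the tumor, nearly all of it Pf4, with Itga2b at no more than 0.28 FPKM.

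**Figure D4:**
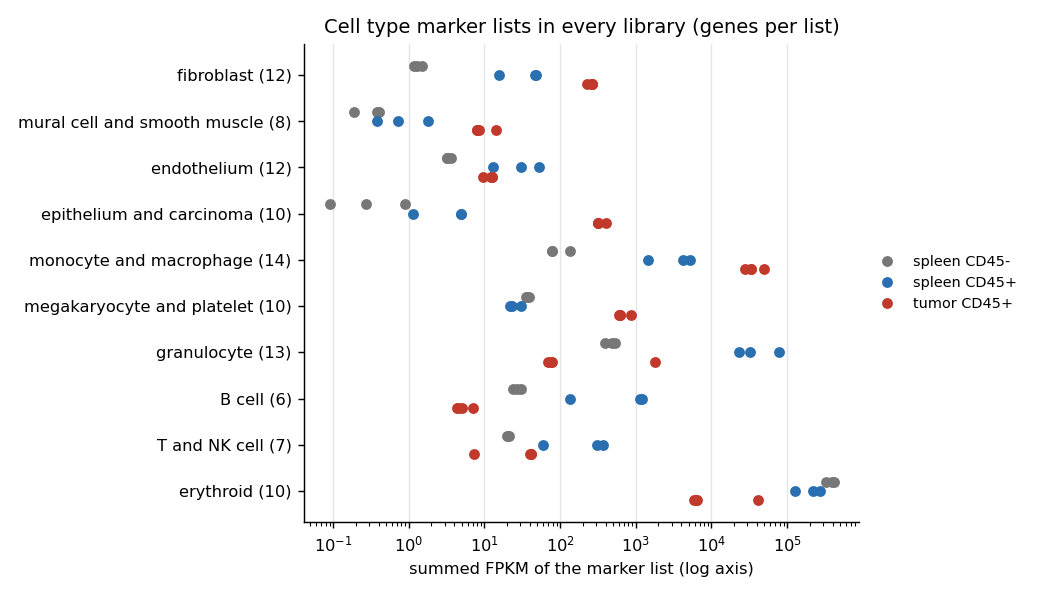
Summed FPKM of 10 marker lists in every library on a log axis, 1 point per library, with the number of genes in each list in brackets. Fibroblast, mural, epithelial, macrophage and megakaryocyte lists are highest in the tumor libraries, granulocyte, B cell and T and NK cell lists in the spleen CD45-positive libraries, and the erythroid list in the spleen.

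Within the tumor group, replicate 1 set the members apart from each other. Its FPKM over the median of replicates 2 to 4 was 0.547 for Col1a1, 0.555 for Postn, 0.600 for Bgn, 0.653 for Col3a1, 0.671 for Col1a2, 0.820 for Pdgfra and 0.828 for Sparc. It was 1.13 for Pdgfrb, 1.42 for Fn1 and 2.39 for Dcn. Over the 10542 genes at 1 FPKM or more in every tumor library the median ratio was 0.909 and 7057 lay below 1. With libraries scaled to a common sum without globin genes the members ran from 0.498 for Col1a1 to 2.16 for Dcn, with Pdgfrb at 1.04 and Fn1 at 1.30.

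The other matrix genes were read against the same median. Of 13 other collagen chains 12 lay below 1 (median 0.659), with Col14a1 at 1.05, or 0.96 once scaled without globin genes. Of 17 synthesis genes 15 lay below 1 (median 0.826), as did 10 of 11 matrix receptors (median 0.794). Of 17 other matrix glycoproteins 9 lay below 1 and 8 above (median 0.929). Scaled without globin genes, 13, 17, 11 and 11 genes of these lists lay below 1. So did 8473 of all 10542 genes, with a median of 0.830. Marker lists that stood apart in the same library included the granulocyte list, at 1771 FPKM in tumor replicate 1 and 69.5 to 77.3 in the others, the erythroid list, at 40797.5 FPKM against 5975 to 6358, and the T and NK cell list, at 7.23 FPKM against 39.9 to 41.9. The epithelial, mural and megakaryocyte lists were also higher there (406, 14.5 and 874 FPKM against 313 to 319, 7.88 to 8.49 and 601 to 619). Their part in these ratios was not tested.

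**Figure D5:**
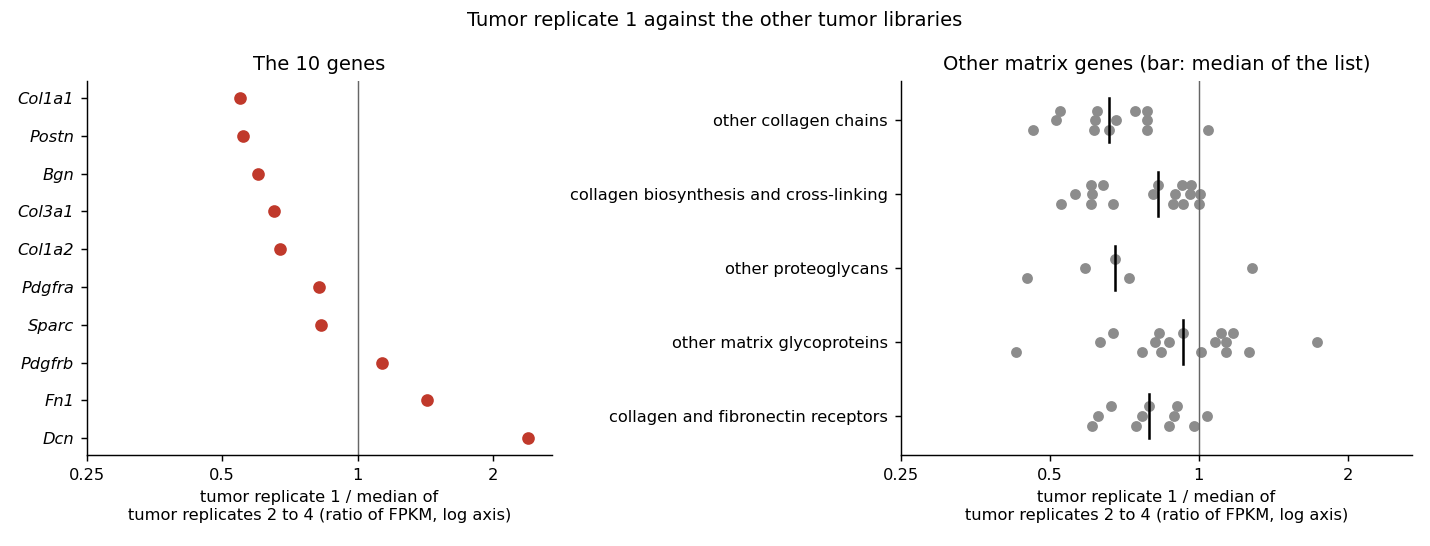
FPKM in tumor replicate 1 divided by the median of tumor replicates 2 to 4, on a log axis, for the 10 genes (left, 1 point per gene) and for other matrix genes at 1 FPKM or more in every tumor library (right, 1 point per gene, bar at the median of the list). The fibrillar collagens lie between 0.547 and 0.671, and Fn1 and Dcn lie at 1.42 and 2.39.

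The genes whose levels followed each member most closely over the 10 libraries were found by Pearson correlation of log2(FPKM + 1). These values describe the libraries, which share group, depth and composition, and carry no test. For Col1a1 they were Ccl8, Cxcl1 and Col3a1 (r = 0.998 to 0.999), for Col1a2 Col3a1, Gm52796 and Serpinh1, and for Col3a1 Col1a2, Gm52796 and Cxcl1. For Sparc they were Stab1, Htra1 and Pdpn, and for Bgn Mrc2, Serpinh1 and Sertad4. For Dcn they were Cspg4, Ndufa4l2 and Ambp, each highest in tumor replicate 1. For Fn1 they were Otulin, Tmem43 and Zfp560 and for Postn Mertk, Prr5l and Tmem51. For Pdgfra they were Plac9a, Cpe and Tmprss11b, and for Pdgfrb Cav2, Slc24a3 and Azin2. Mertk, a receptor by which macrophages take up dying cells, was at 19.7, 0.44 and 3.42 FPKM in spleen CD45-positive replicates 1 to 3 and at 7.16 to 11.1 in the tumor, which is the order that Postn also had. Among the members themselves r ran from 0.614 to 0.9998 with a median of 0.970.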

How the data were processed

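The authors deposited values that were read here as FPKM, estimated for 61685 RefSeq models on GRCm38.p6, per the submitters' processing notes for the build. No unit is named, and FPKM was read from the sums, which differ between libraries and become nearly equal once multiplied by transcript length. RNA was extracted with TRIZOL per the labels' protocols. No aligner, estimator, filter or strand setting is given in the sources used here. Models were matched to symbols by RefSeq accession, and 1506 models without a symbol (0.422% to 1.06% of the FPKM) entered no test. Models were summed to 17606 genes. Depth was estimated from the smallest step of the FPKM values of single-model genes.

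Groups came from the sample titles. limma 3.58.1 in R 4.3.3 was run on log2(FPKM + 1), with a prior that depends on the mean level, for genes reaching 1 FPKM in 3 or more libraries, in 3 comparisons that each held only the groups named. p-values were adjusted by Benjamini-Hochberg over all genes tested, and the fit was tested on simulated data. Exon shares were compared by exact permutation test. Exons and coding sequences are from GENCODE M21, matched by RefSeq accession (7 of 14 Fn1 and 5 of 6 Postn models). Alternatives covered the pseudocount, the filter, the scaling, the fit, the replicate block, single models and single libraries; averaging tumor replicates 2 to 4, counting the Fn1 models of unknown exons either way, and leaving out libraries with no filter were added after seeing the data. The genes described and all lists were chosen with earlier results of these data known. Beside the 10 genes, up to 3 called genes of each list with the largest difference, list genes at 10 FPKM or more in every library of a group, and the 3 genes closest to each member by correlation were named. Other names were chosen after their values were seen.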

Additional observations from a re-analysis of the deposited data

Results flagged for a closer look

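In the group of 4 tumor libraries, replicate 1 lay far from the others by Dixon's criterion on the gap to the nearest library, for 15 of 31 values tested. Chance marks about 1 group in 20 where the other libraries are independent, and tumor replicates 2 to 4 differed little beyond counting noise, so these marks are not independent of each other. The members marked as low in replicate 1 were Col1a1 (12.99 FPKM), Col1a2 (34.05 FPKM) and Col3a1 (70.44 FPKM), and those marked as high were Fn1 (241 FPKM) and Dcn (13.51 FPKM). The shares of Fn1 models with EIIIA (15.9%) and with the first part of the variable region (48.3%) were marked as low. The summed levels marked as low were those of collagen and fibronectin receptors (799.51 FPKM), fibroblast markers (225.62 FPKM) and T and NK cell markers (7.23 FPKM). Those marked as high were mural markers (14.45 FPKM), epithelial and carcinoma markers (406.42 FPKM), megakaryocyte markers (873.62 FPKM), granulocyte markers (1771.1 FPKM) and erythroid markers (40797.5 FPKM).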

How the results depend on the processing

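Under each alternative run, the members called higher in the tumor comparisons kept their direction, and log2 differences of members against spleen CD45-positive libraries kept their side of the threshold except for Postn, which passed without spleen CD45-positive replicate 1 (1.88). Using the highest model alone left Pdgfrb below the filter, so that 8 and 9 members were called against spleen CD45-positive and CD45-negative libraries. Between the spleen groups 0 to 1 members were called when 1 library was left out: without any CD45-positive library Fn1 failed the minimum of 3 libraries and went untested, and without the filter it was called each time. All genes called were 3023 to 5152 between the spleen groups with 1 library left out, against 5400 (the lowest without CD45-positive replicate 1), and 6327 to 7949 and 9620 to 10175 in the tumor comparisons, against 7313 and 10085. With tumor replicates 2 to 4 averaged, 4769 genes were called against spleen CD45-positive libraries, as fewer libraries were fitted. Scaling moved the median of all genes in the tumor against spleen CD45-positive comparison from 0.20 to 0.45 with a common sum, 0.10 with trimmed means and -0.21 without globin genes, and the share of called genes that were higher from 59.2% to 70.5%, 54.0% and 40.4%. Between the spleen groups this share moved from 91.0% to 97.9%, 77.2% and 82.0%, and in the third comparison from 74.99% to 84.6%, 65.1% and 60.5%. Against spleen CD45-positive libraries, the counts of matrix genes called in each list stayed within 1.5 times under these scalings, except for TGF-beta signalling as given above. Every member except Postn differed from spleen CD45-positive libraries by more than 1 under each of these.

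The replicate block, with the replicate number as a term, changed no member call (1, 9 and 10 called higher) and gave 4852, 5573 and 9921 genes called. Same-numbered libraries did not deviate together in every pair (r = -0.185 to 0.209), so the numbers were not taken as pairing. The exact permutation test of EIIIA shares could not reach 0.05 in any version run (0.0571 to 0.2), with differences of 18.2 to 33.6 percentage points. Depth limits the spleen values: Col3a1 (outside CD45-negative replicate 1), Bgn, Dcn and Pdgfra rested on 0 to 7.3 fragments.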

Other observations

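Matrix-degrading and matrix-binding genes outside the 10 members were also present in spleen CD45-positive cells. Mmp9, a gelatinase stored by neutrophils, was at 52.9, 65.1 and 152 FPKM in spleen CD45-positive replicates 1 to 3, 16.3 to 19.0 FPKM in the tumor and 0.42 to 0.70 FPKM in spleen CD45-negative libraries. It was called lower in the tumor than in spleen CD45-positive libraries (log2 difference -2.10 ± 0.34 SE, adjusted p = 0.00102 by limma, lower in 4 of 4 libraries). Emilin2, an elastin-associated glycoprotein, reached 45.8 FPKM or more in all 10 libraries, at 159 to 196 FPKM in the tumor and 49.7 to 53.9 FPKM in spleen CD45-negative libraries. Lair1, an inhibitory receptor for collagen on immune cells, was at 52.9 to 61.8 FPKM in the tumor and at 20.7, 1.85 and 7.95 FPKM in spleen CD45-positive replicates 1 to 3, so that its order among those 3 libraries was that of Postn and Fn1 too. Thy1 and Pi16, which were on the fibroblast list, were highest in the spleen: Thy1 was at 31.0, 4.40 and 23.4 FPKM and Pi16 at 15.0, 10.7 and 23.5 FPKM in spleen CD45-positive replicates 1 to 3, against 1.46 to 7.54 and 2.25 to 5.88 FPKM in the tumor.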
